A study of Mus musculus with 2 samples.

Results

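Cyclin-dependent kinase inhibitors are small proteins that hold back the kinases of the cell division cycle. The 7 genes described here are the mouse Cdkn genes that encode them, found as the rows of the deposited table whose gene name is Cdkn2a, Cdkn2b, Cdkn2c, Cdkn2d, Cdkn1a, Cdkn1b or Cdkn1c. All 7 of them were found among the 23235 rows of the table, and the authors' test was run on 6 of them. The INK4 family has 4 genes (Cdkn2a to Cdkn2d), and the Cip/Kip family has 3 (Cdkn1a to Cdkn1c). The other 3 rows whose names begin with Cdkn, those of Cdkn3, Cdkn2aip and Cdkn2aipnl, belong to genes of other kinds and are not counted as members.

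INK4 proteins bind the kinases Cdk4 and Cdk6 and keep them from their D-type cyclins, so that the retinoblastoma protein stays unphosphorylated and cells stay in G1. Cip/Kip proteins bind whole cyclin-kinase complexes, above all those of Cdk2. The Cdkn2a gene also encodes Arf, an unrelated protein read from another first exon in another frame, which blocks Mdm2 and so stabilises p53. In blood progenitors the locus of Cdkn2a and Cdkn2b is held silent by Polycomb proteins, and its loss is a common step in leukaemia.

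RNA was sequenced from bone marrow progenitors of C57B6 mice that had been depleted of lineage-positive cells and given 2 MIGR1 retroviruses. The first virus, HA-Hoxa9-ER, encodes the homeobox factor Hoxa9 joined to a ligand-binding receptor domain that answers to tamoxifen. The second, Flag-Meis1, encodes a homeobox factor that binds DNA together with Hoxa9. One of the label fields names the first insert without the ER part. Cells in both groups had been transformed in IL3 and 100 nM 4-hydroxytamoxifen (4OHT), which keeps the fusion protein in the nucleus. They were then washed and grown for 72 h either in ethanol (EtOH), the solvent, with loss of nuclear Hoxa9-ER, or in 100 nM 4OHT again. Both groups thus carry viral Hoxa9 and Meis1 and differ in 4OHT during the last 72 h. The comparison asks how RNA levels respond, in transformed cells, to the loss of Hoxa9-ER from the nucleus. No group lacked the fusion, so effects of 4OHT itself and of the nuclear loss cannot be told apart.

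Each group was deposited as 1 sample that merges 2 biological replicates. The level of a gene is a single FPKM value in each group, a count of fragments scaled to transcript length and to the mapped fragments of the library. The FPKM values therefore have no replicate error here, and read depth is unknown. A change is the log2 of (FPKM in EtOH + 1) over (FPKM in 4OHT + 1), positive where EtOH is higher. The added 1 makes changes of low genes look smaller than they are. "Rose" and "fell" are used of genes whose q-value, as the authors' deposited table lists it, was 0.05 or less, and a gene outside that limit "did not pass".

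The 3 stretches of reference DNA printed next were chosen because they lie before the transcripts of the neighbouring genes whose RNA changed most among the 7. Each is the 250 bases before a RefSeq transcript start on GRCm38.p6, minus strand of chromosome 4, written 5′ to 3′. The first Cdkn2a window, at chr4:89294620-89294869, lies farther upstream, before the first exon that gives Arf. The second, at chr4:89282193-89282442, lies before the first exon that gives Ink4a. The Cdkn2b window is at chr4:89311033-89311282. Capitals mark matches to the motifs searched on both strands.
Cdkn2a, upstream window: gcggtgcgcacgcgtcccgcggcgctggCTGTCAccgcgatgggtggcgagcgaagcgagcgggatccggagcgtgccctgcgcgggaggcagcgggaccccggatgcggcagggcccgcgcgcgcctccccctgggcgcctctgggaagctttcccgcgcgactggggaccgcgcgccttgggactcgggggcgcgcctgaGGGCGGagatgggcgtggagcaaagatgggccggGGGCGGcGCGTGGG
Cdkn2a, downstream window: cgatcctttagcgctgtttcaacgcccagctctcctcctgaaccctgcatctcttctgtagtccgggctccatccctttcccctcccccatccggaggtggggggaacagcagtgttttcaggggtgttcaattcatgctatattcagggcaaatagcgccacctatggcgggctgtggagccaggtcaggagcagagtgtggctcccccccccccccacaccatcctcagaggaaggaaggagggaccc
Cdkn2b: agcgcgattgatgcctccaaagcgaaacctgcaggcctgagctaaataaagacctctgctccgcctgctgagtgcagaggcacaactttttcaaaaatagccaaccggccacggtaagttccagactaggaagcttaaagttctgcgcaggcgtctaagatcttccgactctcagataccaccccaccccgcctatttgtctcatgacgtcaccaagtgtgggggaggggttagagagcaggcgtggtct

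The motifs searched were TGACAG (Meis), TGATTTAT (Hox-Pbx), CACGTG (E-box), GGGCGG (GC box), CCAAT, TTTCGCGC and TTTGGCGC (E2F), TTGCNNAA (C/EBP) and GCGTGGG (Egr). Other forms of the E2F site were not searched, such as TTTCCCGC, which stands unmarked in the upstream Cdkn2a window. Absence of an E2F mark is thus no sign that the window lacks such a site. The upstream Cdkn2a window held 1 Meis match, read as CTGTCA on the strand shown, 2 GC boxes and 1 Egr match. The downstream Cdkn2a window and the Cdkn2b window held 0 matches to these letters. Of 32817 windows of the same length in the RefSeq table, 15.9% held the Meis letters, 32.7% the GC box, 33.8% CCAAT and 4.31% the Egr letters. The Hox-Pbx letters occurred in 0 of the 9 windows of the members and in 0.838% of all windows. GC content was 78.4% in the upstream Cdkn2a window, 60.0% in the downstream one and 53.6% in that of Cdkn2b, against a median of 52.4% over all windows. RefSeq had windows for 6 of the 7 genes, all but Cdkn1c. Over the 9 windows the GC box was found in 5, the Meis letters in 2, CCAAT in 2 and the Egr letters in 2, and in Cdkn2c an Egr match overlapped a GC box. A match describes the letters in these windows and is not evidence of binding.

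After withdrawal of 4OHT, RNA of Cdkn2a, Cdkn2b and Cdkn1a was higher, and no inhibitor gene fell. In the authors' deposited Cuffdiff test 3 of the 6 tested members rose and 0 fell, also at an unadjusted p under 0.05, where the counts were again 3 and 0. Over all 11865 genes tested by the authors 12.0% rose and 10.5% fell. With q at most 0.01 the members' counts were again 3 and 0, while 9.41% of all genes rose and 6.68% fell. They were the same with a further minimum of 1.5-fold, where 9.89% rose and 7.23% fell, and with adjustment over rows of at least 1 FPKM, where 12.1% rose and 10.6% fell. The median log2 change of the 6 tested members was 0.50, beside a median of -0.05 over all genes tested. All 6 had a higher FPKM value in EtOH, as had 43.3% of all genes tested. The members were chosen with earlier results of these data known, so these counts describe the genes and are no test of the family. In such bulk samples more cells of a type and more RNA per cell cannot be told apart. The summed level of 13 granulocyte markers was 26503 FPKM in EtOH and 1364 FPKM in 4OHT, and the part of cell type shares in the inhibitor results was not tested.

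**Figure D1:**
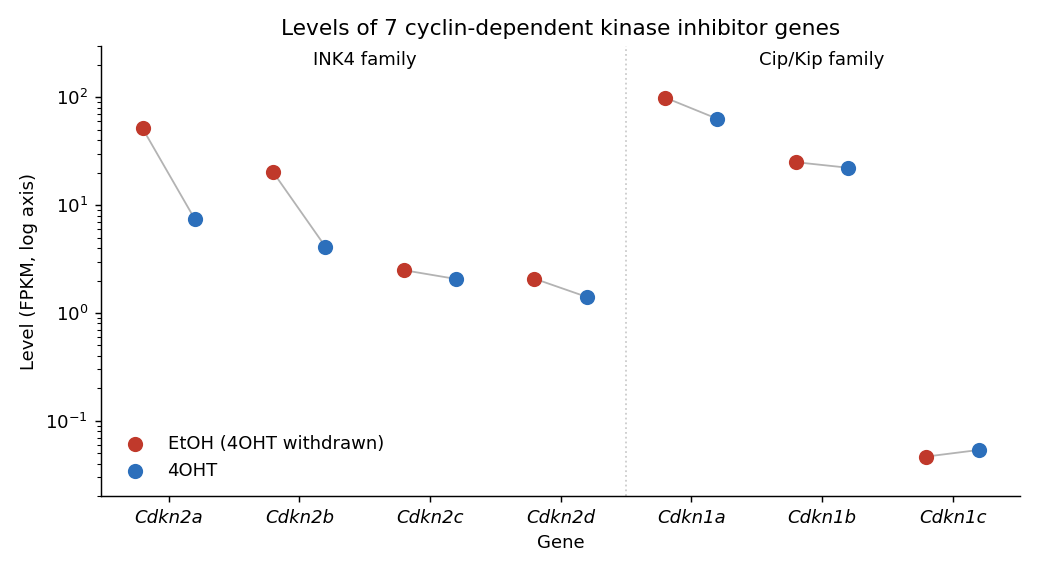
Level of each of the 7 inhibitor genes in FPKM on a log axis, with 1 point per gene for EtOH (left, red) and 1 for 4OHT (right, blue), joined by a line. Each point is the authors' single value per condition, so there are no error bars. Cdkn2a (51.6 and 7.43 FPKM) and Cdkn2b (20.2 and 4.12 FPKM) have the steepest lines, and Cdkn1c lies under 0.1 FPKM in both.

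Among the INK4 genes, Cdkn2a, which encodes Ink4a and Arf, changed most. It had 51.6 FPKM in EtOH, against 7.43 FPKM in 4OHT, a ratio of 6.95 and a log2 change of 2.64. This places it at rank 118 of the 11865 genes tested, ordered by log2 change, with 99.0% of them below it. Its row spans chromosome 4 from 88920377 to 88940523 (mm9). In the authors' deposited table its p-value and q-value are both listed at 0, where the smallest p-value above 0 among tested genes is 2.22e-16.

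The value of Cdkn2a covers transcripts of both of its proteins. GENCODE M21 has 2 coding transcripts of the gene, of 852 and 895 bases. Of the 50-base words of these transcripts, 65.9% and 62.5% occur in the other one as well. The table gives 1 row for the gene, so the change of Ink4a and that of Arf RNA cannot be told apart.

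Cdkn2b encodes Ink4b, an inhibitor of Cdk4 and Cdk6 known as a target of TGF-beta signalling. It had 20.2 FPKM in EtOH, against 4.12 FPKM in 4OHT, a ratio of 4.91 and a log2 change of 2.05. It stood at rank 172 of the genes tested, and its q-value is also listed at 0 in the authors' deposited table. Its row spans chromosome 4 from 88952198 to 88956941 (mm9), 11.7 kb from that of Cdkn2a. The RNA of both genes was thus several times as high in EtOH, and the Cdkn2a level exceeded that of Cdkn2b 2.55 times in EtOH and 1.803 times in 4OHT. Whether the changes of the pair differ from each other could not be tested with 1 value per condition. Although the proteins Ink4a and Ink4b are close relatives, 0 of the 50-base words of either gene's GENCODE transcripts occur in transcripts of any other gene.

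The INK4 gene Cdkn2c encodes Ink4c, which restrains division in lymphoid cells and in blood stem cells. Its level was low, at 2.50 FPKM in EtOH and 2.07 FPKM in 4OHT, a log2 change of 0.19. It did not pass, at q = 0.693 in the authors' deposited table. Its row lies on the same chromosome, from 109333481 to 109337977 (mm9), far from the Cdkn2a and Cdkn2b pair.

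Cdkn2d, the gene of Ink4d, was listed at 2.08 FPKM in EtOH and 1.41 FPKM in 4OHT, a log2 change of 0.35. It did not pass, at q = 0.333 in the authors' deposited table. This value carries a doubt about its place. The table puts the row on chromosome 9 from 123836860 to 123839607 (mm9), between Xcr1 and Ccr1. In the RefSeq annotation of GRCm38.p6, however, Cdkn2d lies between Kri1 and Ap1m2, and in the deposited table these genes stand 102744 and 102720 kb away from the Cdkn2d row. Each of the other 6 members lies within 398 kb of both of its RefSeq neighbours. The Cdkn2d value is therefore uncertain as a measure of that gene. The chemokine receptor gene Ccr1, 37.4 kb from the Cdkn2d row, had 40.7 FPKM in EtOH and 5.61 FPKM in 4OHT. Ccr1, Ccr3 and Ccr2, the nearest tested rows on that side, rose.

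Cdkn1a, the Cip/Kip gene of p21 and a classic target of p53, was the most abundant of the 7 in both conditions. It had 99.5 FPKM in EtOH, against 63.2 FPKM in 4OHT, a ratio of 1.57 and a log2 change of 0.65. It rose, at q = 0.000101 in the authors' deposited table. Its change stood at rank 977 of the genes tested, with 91.8% of them below it. The row spans chromosome 17 from 29227931 to 29237667 (mm9). Of the 50-base words of its transcripts, 2.14% occur in transcripts of other genes.

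Cdkn1b, the gene of p27, is held in check largely through breakdown of its protein. Its RNA had 25.1 FPKM in EtOH and 22.3 FPKM in 4OHT, a log2 change of 0.16, and did not pass, at q = 0.548 in the authors' deposited table. The row lies on chromosome 6 from 134870419 to 134875543 (mm9). Of the genes tested, 73.6% had a lower log2 change.

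Cdkn1c, the gene of p57, is an imprinted gene that is prominent in quiescent blood stem cells. It was listed at 0.0467 FPKM in EtOH and 0.0537 FPKM in 4OHT, and the authors did not test it. Its row lies on chromosome 7 from 150644244 to 150646955 (mm9). At this level a difference was not detectable.

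**Figure D2:**
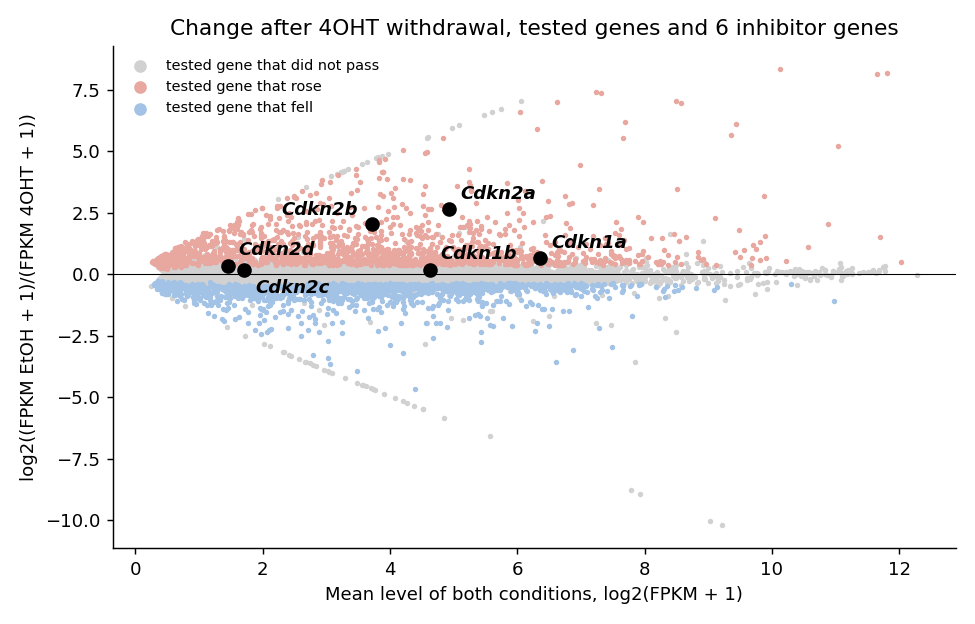
Log2 change, EtOH over 4OHT, against the mean level of both conditions for the genes tested by the authors, with red for genes that rose, blue for genes that fell and grey for those that did not pass. Black points are the 6 tested inhibitor genes. Cdkn2a (2.64) and Cdkn2b (2.05) stand well above the other 4, which lie between 0.16 and 0.65.

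Set beside the other members, the Cdkn2a and Cdkn2b locus stood apart in size. The log2 changes of the pair were 2.64 and 2.05. Those of the other 4 tested members had a median of 0.27, and the highest was 0.65, for Cdkn1a. Of all genes tested, 99.0% had a lower log2 change than Cdkn2a and 98.6% a lower one than Cdkn2b. Among the other 4, the Cdkn2d value is uncertain as a measure of that gene. The members were chosen with earlier results of these data known. With 1 value per condition the difference between the sets was not tested.

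The order of levels differed between the conditions in 1 place. In EtOH the order from high to low was Cdkn1a, Cdkn2a, Cdkn1b, Cdkn2b, Cdkn2c, Cdkn2d and Cdkn1c. In 4OHT, Cdkn1b stood before Cdkn2a, and the order was otherwise the same. Without replicate values it cannot be said which neighbours in these orders differ beyond their spread.

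The summed level of the 7 genes was 201 FPKM in EtOH and 101 FPKM in 4OHT. Cdkn2a and Cdkn2b together held 35.7% of that sum in EtOH and 11.5% in 4OHT. The Cip/Kip genes summed to 125 FPKM in EtOH and 85.6 FPKM in 4OHT, and the INK4 genes to 76.4 FPKM in EtOH and 15.0 FPKM in 4OHT. Cip/Kip RNA thus exceeded INK4 RNA 1.63 times in EtOH and 5.69 times in 4OHT. These sums are descriptions of RNA levels per transcript length and carry no test.

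**Figure D3:**
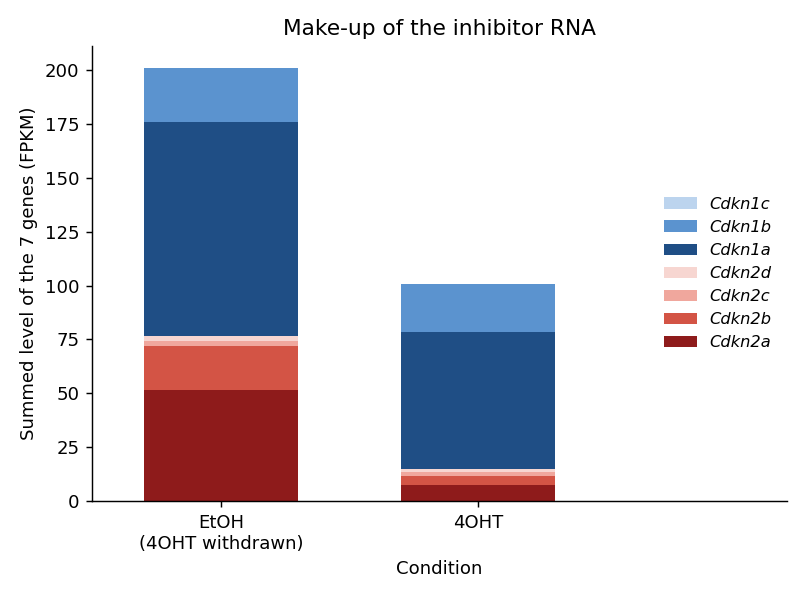
Summed level of the 7 inhibitor genes in FPKM as stacked bars, EtOH left and 4OHT right, with INK4 genes in reds at the bottom and Cip/Kip genes in blues above. The bars reach 201 and 101 FPKM, and the part held by Cdkn2a and Cdkn2b is 35.7% in EtOH and 11.5% in 4OHT.

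The few tested rows near Cdkn2a and Cdkn2b did not all change in the direction of the pair. Mtap, the methylthioadenosine phosphorylase gene, whose row ends 93.4 kb from Cdkn2a, had 11.99 FPKM in EtOH and 19.5 FPKM in 4OHT. It fell, with a log2 change of -0.66 and q = 0.000692 in the authors' deposited table. On the far side of Cdkn2b the nearest row was Dmrta1, at 0.0154 FPKM in EtOH and 0.0210 FPKM in 4OHT, which was not tested. Within 1 Mb of the pair there were 39 other rows, of which 26 were listed at 0 in both conditions. Of these 39 the authors tested 4, all on the Mtap side of the pair. Besides Mtap these were Klhl9, at 19.4 FPKM in EtOH and 19.9 FPKM in 4OHT, BC057079, at 3.50 FPKM in EtOH and 4.87 FPKM in 4OHT, and Ptplad2, at 11.2 FPKM in EtOH and 7.44 FPKM in 4OHT. Ptplad2, 836 kb away, rose, at q = 0.0236 in the authors' deposited table, and the other 2 did not pass. Thus 1 of the 4 rose and 1 fell, beside 12.0% and 10.5% of all genes tested. BC057079 and Ptplad2 were named after their values were seen. The 9 untested rows with a value above 0 reached at most 0.159 FPKM.

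**Figure D4:**
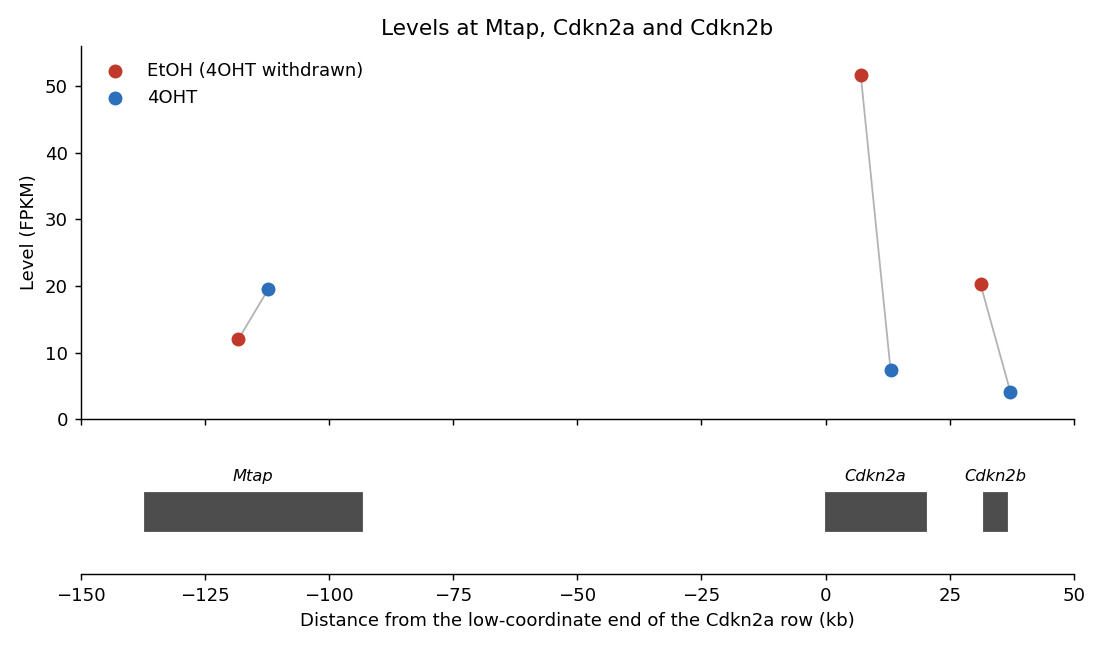
Level in FPKM of Mtap, Cdkn2a and Cdkn2b, with EtOH in red on the left of each pair of points and 4OHT in blue on the right, above a map to scale of their rows as distance in kb from the low-coordinate end of Cdkn2a. Mtap is lower in EtOH (11.99 and 19.5 FPKM), while Cdkn2a and Cdkn2b are higher in EtOH.

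Among the kinases that the inhibitors bind, those that INK4 proteins target fell. Cdk4 had 168 FPKM in EtOH and 230 FPKM in 4OHT, a log2 change of -0.45, at q = 0.00809 in the authors' deposited table. Cdk6 had 26.7 FPKM in EtOH and 41.7 FPKM in 4OHT, a log2 change of -0.63, at q = 0.000292 in the same deposited table of the authors. Cdk2, the main target of Cip/Kip proteins, had 61.7 FPKM in EtOH and 51.2 FPKM in 4OHT and did not pass. Summed INK4 RNA came to 0.393 times the summed RNA of Cdk4 and Cdk6 in EtOH and 0.0553 times in 4OHT. This is a ratio of RNA levels per transcript length, not of proteins.

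The D-type and E-type cyclins, which activate these kinases, did not fall. Ccnd3 was the most abundant D-type cyclin gene, at 190 FPKM in EtOH and 125 FPKM in 4OHT, and rose with a log2 change of 0.60. Ccne1 rose as well, at 10.4 FPKM in EtOH and 6.71 FPKM in 4OHT, with a log2 change of 0.56. Ccnd2, at 31.2 FPKM in EtOH and 28.0 FPKM in 4OHT, and Ccne2, at 11.5 FPKM in EtOH and 8.44 FPKM in 4OHT, did not pass. Ccnd1 lay under 1 FPKM in both. Over the list of 11 kinases and cyclins, 10 were tested, 2 rose, 2 fell and 6 did not pass. The shares that rose and fell were thus 20% each, beside 12.0% and 10.5% of all genes tested.

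Below the G1 kinases stand the pocket proteins and the E2F factors. Of the 13 such genes, 9 did not pass, 2 rose and 2 fell (15.4% each), beside 12.0% and 10.5% of all genes tested. The list median was -0.09. Rb1, the retinoblastoma gene, rose, with 20.6 FPKM in EtOH and 13.0 FPKM in 4OHT and a log2 change of 0.63. The activating factor E2f2 rose (1.29), and the repressor genes E2f8 (-0.79) and E2f4 (-0.46) fell, values in parentheses being log2 changes. Of 30 S phase and mitosis genes, 1 rose (3.45% of those tested), 0 fell, 28 did not pass and 1 had a failed test. At an unadjusted p under 0.05 in the authors' deposited Cuffdiff test the counts were 1 higher and 2 lower. The gene that rose was Kif23, a mitotic kinesin, at 19.1 FPKM in EtOH and 12.3 FPKM in 4OHT. The list median was -0.02, and 0.04 when EtOH values were scaled to a median ratio of 1. In the same samples 3 of the 6 tested inhibitor genes rose, beside 12.0% of all genes tested. A link between the inhibitor genes and these genes of dividing cells was not tested.

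**Figure D5:**
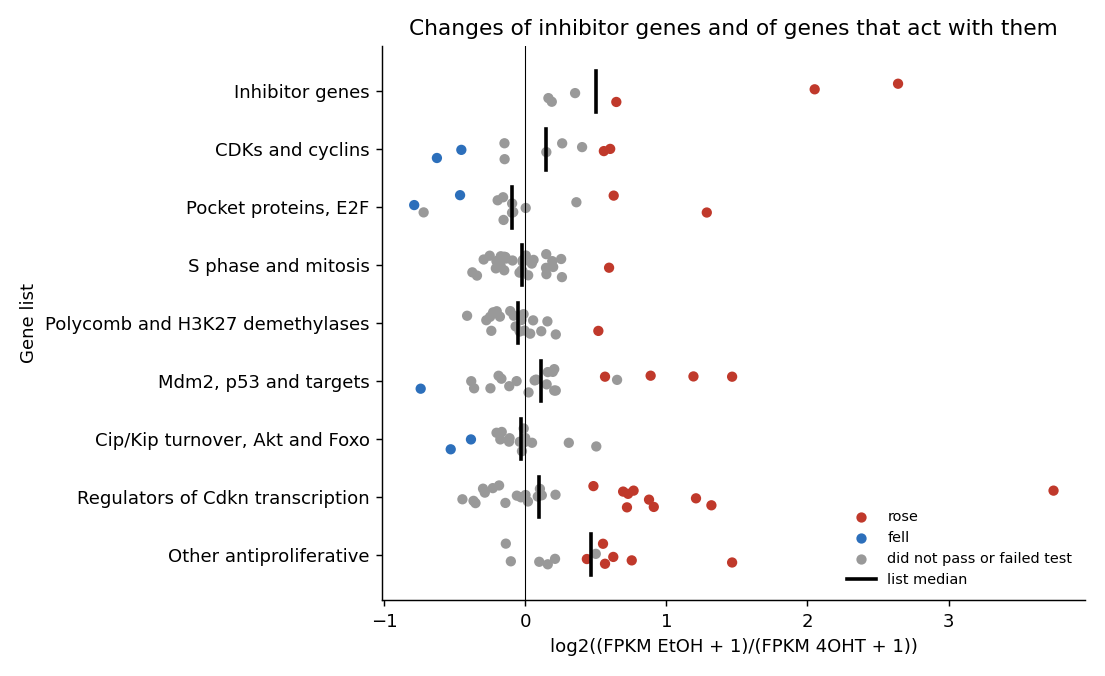
Log2 change, EtOH over 4OHT, of each gene of at least 1 FPKM in either condition (1 point per gene, with random vertical scatter) for the inhibitor genes and 8 lists of genes that act with them, coloured by the authors' test. Black bars are list medians. The inhibitor genes have a median of 0.50, and the S phase and mitosis genes have one of -0.02, or 0.04 with EtOH scaled to a median ratio of 1.

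The Polycomb list holds subunits of the complexes that repress the Cdkn2a and Cdkn2b locus and the demethylases Kdm6a and Kdm6b, which remove their mark. Of 20 tested, 1 rose (5%), 0 fell and 19 did not pass, beside 12.0% and 10.5% of all genes tested that rose and fell. At an unadjusted p under 0.05 in the authors' Cuffdiff test 1 of the 20 was higher and 1 lower. Bmi1 had 8.47 FPKM in EtOH and 10.5 FPKM in 4OHT, with a log2 change of -0.28, and Ezh2 had 22.9 FPKM in EtOH and 24.7 FPKM in 4OHT, with a log2 change of -0.11. None of the subunits was called, and the gene that rose was the demethylase Kdm6b, at 14.2 FPKM in EtOH and 9.60 FPKM in 4OHT (q = 0.00198 in the authors' deposited table). The list median was -0.05, which was 0.00484 when EtOH values were scaled to a median ratio of 1.

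The branch from Arf to p53 was mixed. Trp53, the p53 gene, had 50.5 FPKM in EtOH and 65.1 FPKM in 4OHT and did not pass, at q = 0.0515 in the authors' deposited table. Mdm2, the ligase that Arf blocks and a p53 target itself, had 30.4 FPKM in EtOH and 26.4 FPKM in 4OHT and did not pass. Of 22 tested genes of this branch, Cdkn1a left out, 17 did not pass, 4 rose (18.2%) and 1 fell (4.55%). Over all genes tested 12.0% rose and 10.5% fell. Counts at an unadjusted p under 0.05 in the authors' Cuffdiff test were 4 higher and 3 lower. The list median was 0.11. Those that rose were Btg2 (1.47), Trp53inp1 (1.19), Pmaip1 (0.89), which encodes the death factor Noxa, and Gadd45a (0.57). The one that fell was Aen (-0.74), an apoptosis nuclease gene.

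The next list holds ubiquitin ligase parts that set Cip/Kip protein levels, together with the Akt kinases and Foxo factors that act on Cdkn1b or its protein. Of 17 tested, 0 rose, 2 fell and 15 did not pass, beside 12.0% and 10.5% of all genes tested that rose and fell, and at an unadjusted p under 0.05 in the authors' Cuffdiff test 1 was higher and 2 were lower. Skp2, which marks p27 for breakdown, was at 6.52 FPKM in both EtOH and 4OHT, and its cofactor Cks1b had 112 FPKM in EtOH and 126 FPKM in 4OHT. Those that fell were Foxo4 (-0.53), a factor that activates Cdkn1b, and Skp1a (-0.38), a part of the same ligase as Skp2.

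Over all genes tested 12.0% rose and 10.5% fell. Among 27 tested genes described as regulators of Cdkn transcription, 11 rose (40.7%), 0 fell and 16 did not pass. At an unadjusted p under 0.05 in the authors' Cuffdiff test 11 of them were higher and 4 lower. The largest changes were in Id2 (3.74), which blocks helix-loop-helix proteins, Egr1 (1.32), an early response factor, Cebpe (1.21) and Cebpb (0.91), factors of myeloid maturation. Cebpe had 218 FPKM in EtOH and 93.6 FPKM in 4OHT. The list median was 0.10. Of 14 other antiproliferative genes 8 did not pass, 6 rose (42.9%) and 0 fell, with 7 higher and 0 lower at an unadjusted p under 0.05 in the same test. Besides Btg2 and Gadd45a these included Gadd45b (0.75) and Ccng2 (0.62), and the list median was 0.47. Btg2, Gadd45a and Ccng1 stand in both this list and that of the p53 branch. The lists were chosen with earlier results of these data known, so their counts describe the genes and are no test.

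The genes whose pair of values was most like that of Cdkn2a were Dgat2, an enzyme of triglyceride synthesis, Il1r2, a decoy receptor of interleukin 1, and Cd300lf, a myeloid receptor. Likeness was the distance in log2(FPKM + 1) over the 2 conditions. It was taken among the other 10980 tested rows of at least 1 FPKM in either condition, leaving out those that name several genes. The distance was 0.0957 for Dgat2, 0.324 for Il1r2 and 0.423 for Cd300lf. For Cdkn2b they were Bzrap1, Clec5a and Mgll, at distances of 0.0683, 0.122 and 0.168. Distances over 2 values only find genes of like level and like change.

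All 13 listed markers of maturing granulocytes rose, where 12.0% of all genes tested rose and 10.5% fell. The marker lists were chosen with earlier results of these data known, so their counts describe these genes only. Of 10 markers of progenitors, the labelled cell type, 4 rose, 4 fell and 2 did not pass, and their summed level was 614 FPKM in EtOH and 669 FPKM in 4OHT. Those that fell, with log2 changes in parentheses, were Flt3 (-3.64), Sox4 (-1.64), Cd48 (-1.51) and Cd34 (-1.42). Those that rose were Prom1 (2.74), Spi1 (1.10), Ptprc (0.91) and Gata2 (0.77). Cd34 had 45.8 FPKM in EtOH and 124 FPKM in 4OHT. Kit, at 10.1 FPKM in EtOH and 7.39 FPKM in 4OHT, did not pass. Of 14 markers found of other cell types 8 were tested, of which 3 rose, 4 fell and 1 did not pass, while 6 were not tested. Their summed level was 194 FPKM in EtOH and 313 FPKM in 4OHT. Most of that difference lay in the macrophage marker Emr1, at 102 FPKM in EtOH and 202 FPKM in 4OHT, while the myeloid markers Csf1r, at 2.10 FPKM in EtOH and 0.347 FPKM in 4OHT, and Itgax, at 0.522 FPKM in EtOH and 0.105 FPKM in 4OHT, rose. The T cell genes Cd3e and Cd3g were listed at 0 in both conditions. Hoxa9 had 892 FPKM in EtOH and 476 FPKM in 4OHT, and Meis1 418 FPKM in EtOH and 242 FPKM in 4OHT. Both are also carried by the viruses, so these levels do not check the nuclear loss of the fusion protein.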

How the data were processed

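RNA was measured in 2 samples, EtOH and 4OHT, each made of 2 biological replicates. The submitters' processing notes name Bowtie2 2.0.0.7, CASAVA 1.8.2, Cuffdiff 2.0.2 and the build mm9. Of the annotation, the order of steps and the combining of replicates, nothing is given in the sources used here. For each gene the authors deposited 1 FPKM value in each condition, per the file headers. The authors also deposited a p-value and a q-value per gene for EtOH against 4OHT. They tested 11865 of 23235 rows. Benjamini-Hochberg adjustment of the p-values over those rows returned the deposited q-values, with a difference of at most 1.7e-06. As FPKM is relative to the library, more of some abundant RNAs means less of the rest. Depth is unknown, so no counting interval is given.

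With 1 value per condition no test of this work was possible, and all calls are the authors'. Log2 changes used a pseudocount of 1, and list medians left out genes under 1 FPKM in both conditions. Computation used Python 3.11.15, pandas 2.3.3 and numpy 2.4.6, and the steps were tested on simulated data. The members and the 13 other lists, with 205 entries, were chosen with earlier results of these data known. Older symbols were matched through RefSeq names, and 1 entry, Hbb-b1, was not analysed here. Genes were named by a rule: the members, Hoxa9, Meis1 and 15 core partners, up to 4 called genes per list with the largest change, the nearest neighbours of Cdkn2a and Cdkn2b, and the 3 genes most like each of them. It gave 62 genes. Genes outside it are neighbours of Cdkn2d, Klhl9, Ccng1, Kdm6a and members of the marker lists, or are said to be named after their values were seen. Deposited coordinates are on mm9 with starts counted from 1, promoter sequences are RefSeq's on GRCm38.p6, and the 2 builds were not mixed. Shared words are 50-base words of GENCODE M21 transcripts.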

Additional observations from a re-analysis of the deposited data

How the results depend on the processing

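No paired analysis was possible because each condition was deposited as 1 value, and for the same reason no replicate could be left out. Over pseudocounts of 0.1 and 5 and 2 scalings, all 28 alternative log2 changes of the 7 genes kept their sign. Cdkn2a ranged from 2.19 to 2.78 and Cdkn2b from 1.47 to 2.27. Scaling EtOH to the FPKM sum of 4OHT multiplies its FPKM values by 0.921, -0.12 on the log2 scale before the pseudocount and less for low genes after it. Cdkn1a was then at 0.53 and Cdkn1b at 0.05. The counts of 3 members higher and 0 lower held at a q-value of at most 0.01, with a further minimum of 1.5-fold, with adjustment over rows of at least 1 FPKM, and without the Cdkn2d row, the last chosen after seeing the data. Of 32 alternative list counts 25 were within 1.5 times. At a q-value of at most 0.01, 1 kinase or cyclin gene was higher rather than 2, and 1 pocket protein or E2F gene and 1 gene of the list of ligase parts, Akt and Foxo (Foxo4) were lower rather than 2. With at least 1.5-fold, 1 kinase gene and 1 E2F gene were lower rather than 2, 0 genes of the list of ligase parts, Akt and Foxo were lower rather than 2, and 0 Polycomb genes were higher rather than 1. These rules are stricter by construction. The share of summed member FPKM held by Cdkn2a and Cdkn2b was 36.2% in EtOH and 11.7% in 4OHT without Cdkn2c, 36.1% in EtOH and 11.6% in 4OHT without Cdkn2d, 70.8% in EtOH and 30.9% in 4OHT without Cdkn1a, and 40.8% in EtOH and 14.7% in 4OHT without Cdkn1b. The abundant Cdkn1a thus sets much of this share. List medians moved by at most 0.14. Depth and the spread between replicates are unknown, so no level or change of these genes has an error.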
